A study of Rattus norvegicus with 20 samples.

Results

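The serpins were followed in epithelial cells of rat oral mucosa, trachea, esophagus, vagina and footpad, cultured before transplantation or recovered from grafts and cultured again. A gene was taken as a member where its probe set carried exactly 1 symbol in the platform annotation and that symbol began with Serpin, with 1 probe set per symbol. This gave 36 genes out of 14506 symbols and 29215 probe sets, and each of the 36 had a single probe set. A further 2 Serpin probe sets carried several symbols and were left out. By the letter in their names, 14 members belong to clade B, 13 to clade A, 2 each to clades F and I, and 1 each to clades C, D, E, G and H.

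All 10 groups came from Sprague-Dawley green rats at postnatal day 200, whose transgene drives the enhanced green fluorescent protein (EGFP) from an actin promoter. Cells were dissociated with trypsin and grown on irradiated mouse 3T3-J2 fibroblasts, before transplantation as well as after recovery. Transplantation placed them in newborn mouse skin grafted onto nude mice, and EGFP-positive cells were sorted from duplicate cultures, so that each tissue had 2 arrays before and 2 after. The p-values therefore measure the spread between duplicate cultures and not between animals or grafts. A sort on EGFP leaves out mouse feeder cells but no rat cell type. The numerals in the sample titles, which may be passages, were the same at both stages in vagina alone, and elsewhere this difference and transplantation cannot be told apart.

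Most serpins are suicide inhibitors of serine or cysteine proteases. The protease cuts an exposed loop of the serpin, the loop inserts into the body of the molecule, and the enzyme stays trapped in a covalent complex. Clade A holds mainly secreted plasma proteins made by the liver, while clade B members lack a classical signal peptide and act largely inside cells. Many clade B genes are expressed by stratified epithelia, where they face the proteases of cornification and shedding, and a few serpins, such as Serpinh1 and Serpinb5, are not protease inhibitors at all.

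The 4 clade B genes with the largest changes were Serpinb9, Serpinb7, Serpinb11 and Serpinb10, and the stretch of 250 bases before each annotated start is shown because of the size of these changes and because 3 of the genes lie in one cluster on chromosome 13. Sequences are those of RefSeq (GRCr8), 5′ to 3′ on the strand of the gene, and capitals mark matches to the motifs named after them.
Serpinb7, chr13:23910056-23910305, plus strand: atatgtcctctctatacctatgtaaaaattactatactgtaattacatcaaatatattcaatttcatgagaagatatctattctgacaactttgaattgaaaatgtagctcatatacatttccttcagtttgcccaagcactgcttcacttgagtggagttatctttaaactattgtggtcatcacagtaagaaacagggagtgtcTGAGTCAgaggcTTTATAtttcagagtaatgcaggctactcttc
Serpinb11, chr13:23840576-23840825, plus strand: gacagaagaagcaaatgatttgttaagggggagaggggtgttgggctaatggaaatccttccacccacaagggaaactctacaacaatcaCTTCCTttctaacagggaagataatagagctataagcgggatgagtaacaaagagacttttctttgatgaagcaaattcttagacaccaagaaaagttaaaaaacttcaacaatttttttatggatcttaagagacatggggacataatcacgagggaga
Serpinb10, chr13:24067803-24068052, plus strand: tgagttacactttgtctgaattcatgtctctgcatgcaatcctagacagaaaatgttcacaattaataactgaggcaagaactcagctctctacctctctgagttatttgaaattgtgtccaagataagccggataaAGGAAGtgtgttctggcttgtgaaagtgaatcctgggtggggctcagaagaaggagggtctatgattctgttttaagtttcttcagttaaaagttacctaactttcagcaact
Serpinb9, chr17:31640817-31641066, minus strand: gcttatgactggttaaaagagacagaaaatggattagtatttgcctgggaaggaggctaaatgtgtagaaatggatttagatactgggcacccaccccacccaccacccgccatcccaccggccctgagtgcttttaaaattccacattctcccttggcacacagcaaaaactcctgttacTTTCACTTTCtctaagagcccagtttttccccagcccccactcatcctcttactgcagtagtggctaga

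Both strands of these windows were searched for an AP-1 motif (TGANTCA), an ETS motif (AGGAAG), the core of the TATA box (TATAAA) and an interferon-stimulated element (TTTC repeated after any pair of bases). The Serpinb7 window held TGAGTCA with its first base 44 bases before the start, and the TATA box letters on the other strand, as TTTATA, 32 bases before it. Serpinb11 had an ETS match on the other strand at 160 bases, Serpinb10 an ETS match at 113 bases, and Serpinb9 the letters TTTCACTTTC at 69 bases before the start. Of the 29 members with a promoter in the table, 4 held the AP-1 motif (Serpinb2, Serpinb3, Serpinb5 and Serpinb7), against 6.34% of 33469 promoters of all genes. The ETS motif was found in 12 members and in 29.5% of all promoters, the letters of the TATA box in 5 and 12.9%, and the interferon-stimulated element in 2, Serpinb2 and Serpinb9, and 3.41%. These are matches of letters, and no binding was measured here.

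Values are log2 RMA values, on which 1 unit stands for a 2-fold difference, and levels of different genes are not compared in amount because each probe set has its own brightness. The file gives no detection call. As a guide, 4.77 is the value under which the means of 40% of all probe sets lie, and it is called the low level here; the size of a change that starts or ends under it is uncertain. Array medians lay between 5.31 and 5.55. Duplicates had a Pearson's r between 0.991 and 0.996 across probe sets and differed with an SD of 0.210 to 0.328.

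The low level served only as a rough guide to which members gave signal. On all 20 arrays 16 members stayed under the low level, 9 stayed at or above it, and 11 were found on both sides. Of the 13 clade A members 10 were under it on every array, among them the protein C inhibitor Serpina5 and the hormone carriers Serpina6 and Serpina7. The neuronal serpin Serpini1, Serpini2 and the thrombin inhibitor Serpind1 were under it throughout as well. Antithrombin, Serpinc1, stayed between 4.66 and 5.15. The highest means belonged to Serpinb2 (11.96), which inhibits plasminogen activators, Serpinb1a (11.90), an inhibitor of neutrophil elastase, Serpinb5 (11.23), also known as maspin, Serpinb10 (10.67), Serpinh1 (10.59), the collagen chaperone of the endoplasmic reticulum, and Serpinb6a (10.52), which were the 6 members with a mean of 10 or more.

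**Figure D1:**
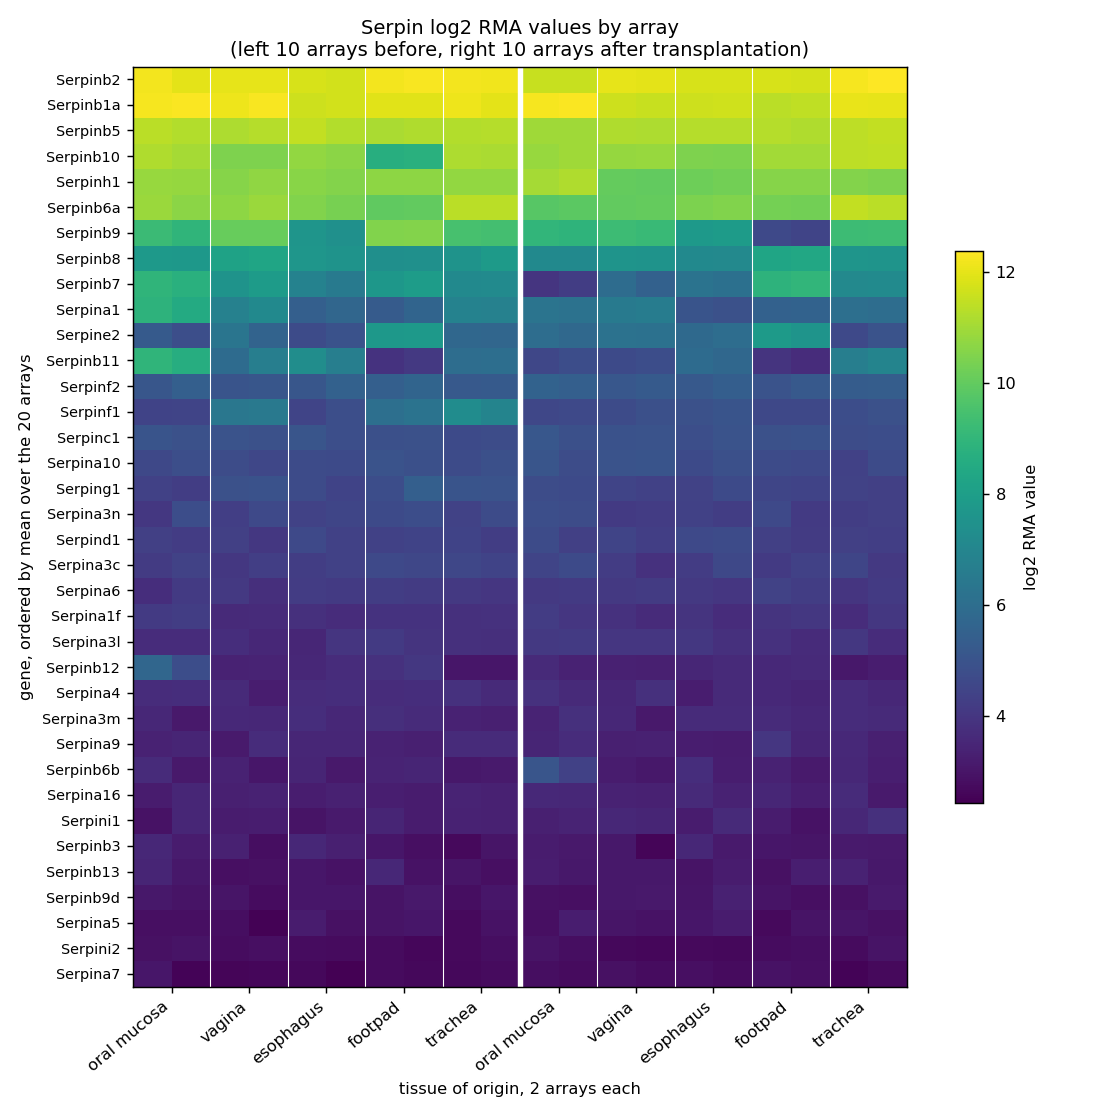
Log2 RMA value (color) of the 36 serpins (rows, ordered by their mean) on the 20 arrays (columns, 10 before on the left and 10 after transplantation on the right, 2 per tissue). The 6 genes with a mean of 10 or more form the bright rows at the top, and Serpinb9, in the row below them, turns dark in recovered footpad cells (4.57).

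Which serpins changed after transplantation was asked in each tissue with limma on all probe sets, and a member is said to have risen or fallen where it changed more than 2-fold at a Benjamini-Hochberg adjusted p below 0.05. In oral mucosa cells 5 of 36 members passed, while 3.65% of all probe sets did; 1 rose (1.5% of all probe sets) and 4 fell (2.15%). In vagina cells 3 fell and none rose, against 1.68% and 0.534% of all probe sets (2.21% together). In esophagus cells 1 rose and 1 fell, against 0.517% and 0.558% (1.07% together). In footpad cells 2 rose and 2 fell, against 4.28% and 2.64% (6.92% together), and in trachea cells 1 fell and none rose, against 0.883% and 0.496% (1.38% together). The median change of the 36 members was 0.03 in oral mucosa, −0.06 in vagina, 0.01 in esophagus, −0.14 in footpad and 0.03 in trachea, beside 0.05, 0.06, −0.01, −0.03 and 0.01 for all probe sets.

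Over the 5 tissues, 9 of 36 members, 25.0%, passed in at least 1 tissue, against 10.9% of all probe sets. Among probe sets with a mean at or above the low level these numbers were 7 of 16 members and 16.2%. Of the 180 pairs of member and tissue 15 passed, 4 higher and 11 lower, against 3.05% of all such pairs. Serpinb7, Serpinb11 and Serpinf1 passed in more than 1 tissue and 0 members in all 5, and neither was counted over all probe sets. The other 27 members passed in none, with changes from −0.91 to 0.93.

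Serpinb7 (probe set 10763359), a clade B serpin of stratified epithelia whose loss causes a palmoplantar keratoderma in humans, fell in oral mucosa and vagina and rose in footpad. In oral mucosa its values were 8.93 and 8.74 before and 3.97 and 4.25 after transplantation. These arrays did not overlap, and the gene went from the highest of the 5 tissues to the lowest. The change was −4.73 ± 0.17 (SE of limma's fit, adjusted p 4.12e-10), a 26.6-fold fall that ended under the low level. In vagina the values went from 7.53 and 7.90 to 5.97 and 5.52 (change −1.97 ± 0.17, adjusted p 1.88e-06). Footpad moved the other way, from 7.70 and 7.93 to 8.85 and 9.0, with a change of 1.11 ± 0.17 (adjusted p 1.04e-04) that was 1.00, just under 2-fold, without the first array before. Esophagus cells had 6.83 and 6.52 before and 6.21 and 6.10 after, which did not overlap but did not pass (adjusted p 0.0548). Trachea cells had 7.15 and 7.21 before and 7.13 and 7.19 after, and these overlapped.

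Serpinb11 (probe set 10763351), which neighbors Serpinb7 on chromosome 13, fell in oral mucosa, vagina and esophagus. Oral mucosa cells had 8.92 and 8.65 before and 4.57 and 4.80 after, a change of −4.10 ± 0.23 with an adjusted p of 2.76e-08 (17.1-fold). Vagina cells had 5.91 and 6.70 before and 4.68 and 4.78 after, a change of −1.57 ± 0.23 with an adjusted p of 2.49e-04. The vagina duplicates before were wide apart (SD 0.56), but no array after reached them. In esophagus the values went from 7.32 and 6.69 to 5.92 and 5.76 (change −1.16 ± 0.23, adjusted p 0.00365). This fall rested on the first array before, and without it the change was −0.84 with an adjusted p of 0.0506. In trachea the arrays had 6.0 and 6.02 before and 6.69 and 6.91 after, which did not overlap. That difference of 0.79 ± 0.23 had an adjusted p of 0.0320 and stayed under 2-fold. Footpad cells were under the low level throughout, with 3.88 and 4.08 before and 3.92 and 3.70 after.

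Serpinb9 (probe set 10798135), the intracellular inhibitor of granzyme B, had the largest change of the family, and it was a fall in footpad. Footpad cells had 10.48 and 10.55 before, the highest of the 5 tissues, and 4.64 and 4.50 after, the lowest. The change was −5.95 ± 0.10 (adjusted p 1.96e-13), a 61.7-fold fall that ended under the low level. Vagina cells had 10.05 and 10.07 before and 9.25 and 9.17 after, a difference of −0.85 ± 0.10 (adjusted p 3.66e-05) under 2-fold. Oral mucosa cells had 9.22 and 8.96 before and 9.0 and 8.92 after. Trachea cells had 9.47 and 9.39 before and 9.25 and 9.29 after, and esophagus cells, with the lowest level before, 7.62 and 7.44 before and 7.79 and 7.90 after. None of these 3 tissues passed. Of 16 measured granzymes and other leukocyte serine proteases, 1 passed in footpad, where 4.28% of all probe sets rose. This was Mcpt4, a mast cell chymase, which rose from 2.24 to 7.43, and 0 passed in the other 4 tissues. The median change of that list lay between −0.08 and 0.13.

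**Figure D2:**
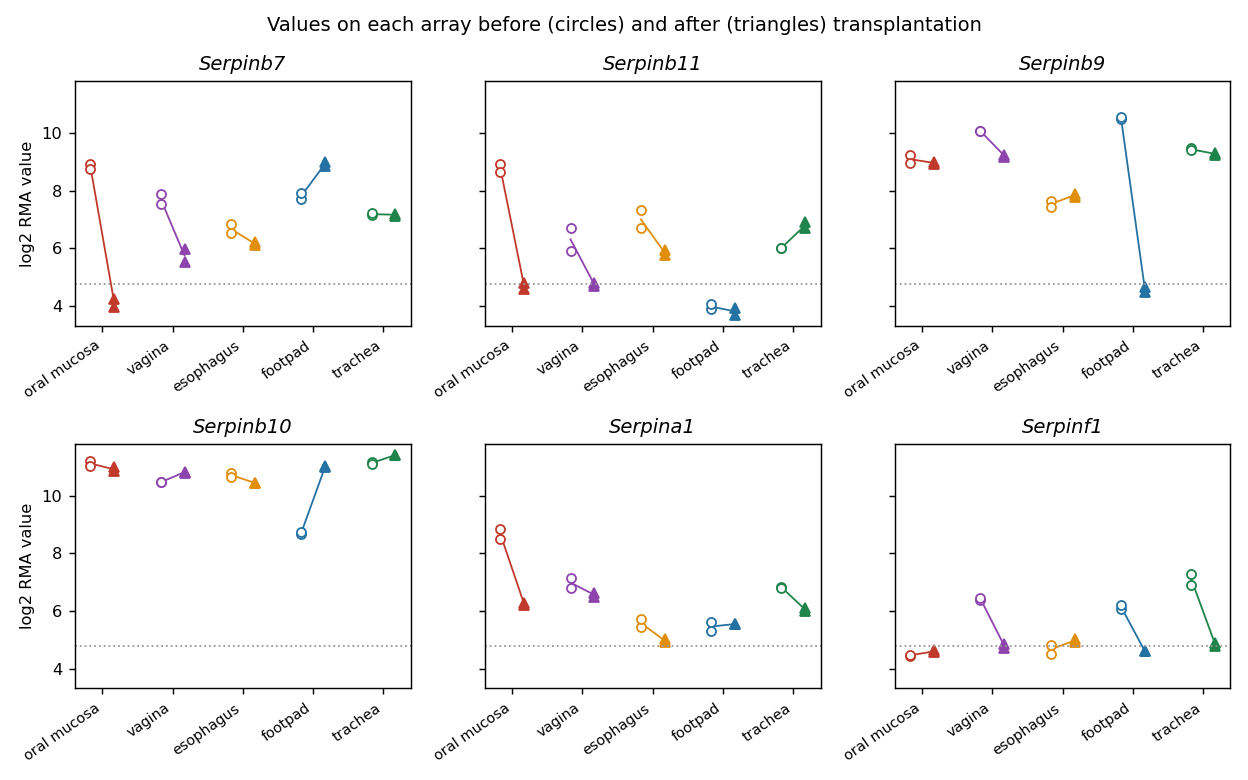
Log2 RMA values of Serpinb7, Serpinb11, Serpinb9, Serpinb10, Serpina1 and Serpinf1 on each array (circles before, triangles after transplantation, lines between group means, dotted line at the low level of 4.77). Serpinb7 and Serpinb11 drop steeply in oral mucosa, from near 9 to below 5, Serpinb9 drops in footpad from 10.52 to 4.57, and Serpinf1 drops in vagina, footpad and trachea.

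Serpinb10 (probe set 10763375), known as bomapin, was the serpin that rose most. In footpad it went from 8.68 and 8.73 to 10.99 and 11.01, a change of 2.29 ± 0.08 with an adjusted p of 1.37e-10. The low footpad arrays before were the exception, since on the other 4 tissues values lay between 10.43 and 11.41 at both stages, and recovered footpad cells lay in that range. Changes in the other tissues were between −0.27 and 0.35.

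Serpinb12 and Serpinb6b passed in oral mucosa alone, at low levels. Serpinb12 (probe set 10763332) had 5.71 and 4.80 before and 3.62 and 3.37 after (change −1.76 ± 0.20, adjusted p 1.74e-05). Its duplicates before were 0.91 apart, the widest gap of any member, and on all arrays of the other tissues it was under the low level. Serpinb6b (probe set 10798142) went from 3.65 and 3.13 to 5.06 and 4.35 (change 1.32 ± 0.24, adjusted p 0.00106). Only 1 array after lay above the low level, and without it the difference was 0.96, under 2-fold. Both genes have means under the low level, so their changes rest on dim probe sets.

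Further clade B members differed by less than 2-fold. Just outside the threshold lay Serpinb8, a furin inhibitor, which differed by 0.93 ± 0.09 in footpad (7.39 and 7.41 before, 8.27 and 8.39 after, adjusted p 2.83e-06). The same gene differed by −0.61 in oral mucosa, −0.66 in vagina and −0.44 in esophagus. Serpinb6a, which inhibits trypsin-like proteases and cathepsin G, had 10.87 and 10.63 before and 9.80 and 9.87 after in oral mucosa (−0.91 ± 0.10, adjusted p 8.39e-06). Its difference in vagina was −0.78. Of the members just inside the threshold, Serpine2 in esophagus was nearest, with 1.09. Serpinb1a differed by −0.61 in vagina and −0.56 in footpad, and Serpinb2 by −0.53 in oral mucosa and −0.47 in footpad. Serpinb5 stayed between 10.94 and 11.47 on every array.

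Serpina1 (probe set 10891949), or alpha-1 antitrypsin, was the only clade A member that passed. In oral mucosa it went from 8.85 and 8.51 to 6.28 and 6.19, a change of −2.44 ± 0.15 with an adjusted p of 4.34e-08 (5.44-fold). The difference was −0.78 in trachea (adjusted p 0.00249) and −0.62 in esophagus (adjusted p 0.0119), both under 2-fold, and 0.09 in footpad. Vagina cells had 6.81 and 7.16 before and 6.49 and 6.63 after. The other 12 clade A members changed by −0.35 to 0.41. Of 5 liver markers 4 were under the low level in every group, where a fall could hardly be seen, and 0 passed in any tissue.

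Serpinf1 (probe set 10744939), which encodes the secreted pigment epithelium-derived factor and has no known protease target, fell in 3 tissues. Trachea cells went from 7.29 and 6.92 to 4.78 and 4.90 (change −2.26 ± 0.13, adjusted p 1.11e-07). Vagina cells went from 6.38 and 6.47 to 4.71 and 4.86 (change −1.64 ± 0.13, adjusted p 9.50e-07), and footpad cells from 6.08 and 6.22 to 4.61 and 4.59 (change −1.55 ± 0.13, adjusted p 4.22e-07). In oral mucosa and esophagus its values were between 4.45 and 5.03 at both stages. After transplantation all 5 tissues lay close together, from 4.60 to 4.98, where they had spread from 4.46 to 7.10 before. The recovered values lay around the low level of 4.77, as those of oral mucosa and esophagus did before. Differences between tissues can hardly be seen there, and the fall in footpad ended under it.

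Fibroblast markers moved in the same 3 tissues. Of 12 such markers 8 fell in vagina, 9 in footpad and 6 in trachea, against 1.68%, 2.64% and 0.883% of all probe sets. In oral mucosa and esophagus 0 passed. The sum of their 12 log2 values went from 80.7 and 82.3 to 61.8 and 61.8 in vagina, from 82.3 and 82.9 to 62.9 and 63.6 in footpad, and from 80.5 and 82.3 to 64.6 and 65.5 in trachea. In oral mucosa it was 65.2 and 67.2 before and 68.2 and 68.2 after, and in esophagus 63.5 to 65.4 over the 4 arrays. The median change of the list was −1.62 in vagina, −1.55 in footpad and −1.06 in trachea, beside 0.22 in oral mucosa and −0.02 in esophagus. Before transplantation 2 of the 12 markers lay under the low level in vagina and in footpad and 1 in trachea, and after it 5 did in each of the 3. Col1a1, a chain of the main fibrillar collagen, fell from 9.26 to 6.81 in trachea, and the mesenchymal glycoprotein Thy1 from 7.10 to 4.98. The part of fibroblasts in the fall of Serpinf1, or in the other changes in these tissues, was not tested. In such bulk RNA fewer cells of a type and less RNA per cell cannot be told apart. Serping1, the C1 inhibitor, which connective tissue cells also secrete, differed by −0.67 in footpad, −0.65 in trachea and −0.48 in vagina, under 2-fold. The mean of Serping1 (4.64) was under the low level, as were all its recovered arrays in these 3 tissues. Its footpad duplicates before were wide apart, at 4.81 and 5.46.

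Serpine2 (probe set 10929288), or protease nexin 1, an inhibitor of thrombin and plasminogen activators, rose in esophagus from 4.72 and 4.94 to 5.83 and 6.01 (change 1.09 ± 0.20, adjusted p 0.00220). This change was 0.98 without the first array before and 1.00 without the second array after, both under 2-fold. In oral mucosa the difference was 0.84 ± 0.20 (adjusted p 0.00747), and in trachea −0.94 ± 0.20 (adjusted p 0.00546). Footpad cells held the highest level at both stages, with 7.73 and 7.78 before and 7.86 and 7.59 after. Serpinf2, the plasmin inhibitor, stayed between 5.0 and 5.65, and Serpinh1 differed by 0.31 in oral mucosa and by −0.64 in vagina. Of 19 measured collagens and collagen folding genes 4 fell in vagina, where 1.68% of all probe sets fell. They were Col3a1 (−2.63), Col1a2 (−2.48), Col1a1 (−2.39) and P4ha3 (−1.09), and the collagens named here are also among the fibroblast markers above. In trachea 4 of the 19 genes fell (0.883% of all probe sets), and in footpad 4 fell (2.64%) and 1 rose (4.28%). Serpinh1 differed by −0.26 in trachea and −0.10 in footpad. The median change of these 19 genes was −0.19 in vagina, −0.42 in footpad, −0.27 in trachea, 0.32 in oral mucosa and 0.08 in esophagus.

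**Figure D3:**
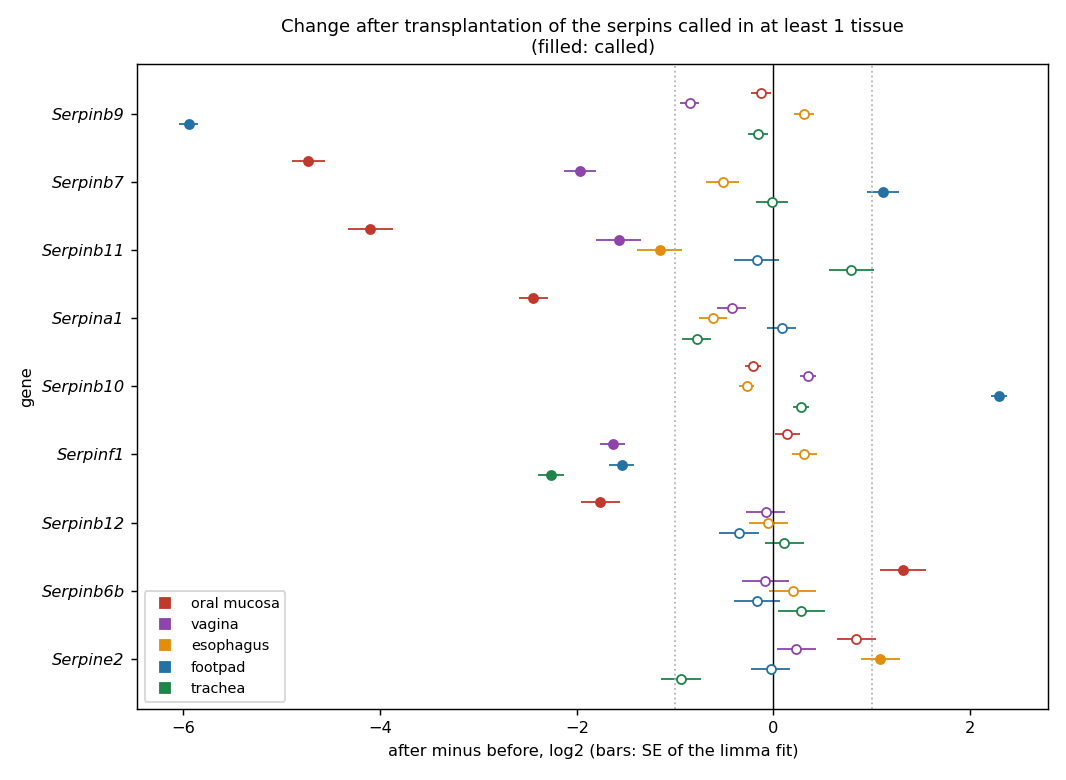
Change after transplantation (after minus before, log2, bars are the SE of limma's fit) of the 9 serpins that passed in at least 1 tissue, 1 color per tissue, with filled points where the change passed and dotted lines at a 2-fold change. The largest excursions are Serpinb9 in footpad (−5.95) and Serpinb7 (−4.73) and Serpinb11 (−4.10) in oral mucosa, while the highest changes of these genes are 0.31 (esophagus), 1.11 (footpad) and 0.79 (trachea), in that order.

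Whether the response depended on the tissue was tested with limma's F test over the 5 changes. The response differed between tissues for 12 of 36 members, against 18.5% of all probe sets, at an adjusted p under 0.05 and a largest difference of changes over 1. These were the 9 members above together with Serpinb8, Serpinb6a and Serping1. The widest spread of changes was that of Serpinb9, 6.26 on the log2 scale (adjusted p 4.42e-11), followed by Serpinb7 with 5.84 (adjusted p 3.57e-09) and Serpinb11 with 4.89 (adjusted p 4.13e-07). For single tissues, the change of Serpinb7 in footpad exceeded the mean change of the other 4 tissues by 2.92 (adjusted p 3.44e-08), and that of Serpinb11 in trachea by 2.54 (adjusted p 1.83e-05). Here and in the contrasts that follow, the mean of the other 4 tissues holds the steep fall of the gene in oral mucosa. Serpinb11 in trachea itself differed by only 0.79, under 2-fold. The changes of Serpinb11 in vagina and esophagus did not pass against the mean change of the other 4 tissues (differences −0.41 and 0.11, adjusted p 0.375 and 0.865). A mean response was fitted with limma on group means, where the error is the spread between tissues. At an adjusted p under 0.05 and a fold over 2, 0 members and 0 probe sets in all passed. The smallest adjusted p of a member was 0.428 in that fit. Serpina1 (mean change −0.84) and Serpinf1 (−1.0) were the 2 members with an unadjusted p under 0.05, as were 11.2% of all probe sets.

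Before transplantation, the 5 tissues differed in the level of 9 of 36 members (limma F test and a largest fold over 2), against 9.05% of all probe sets. Against the mean of the other 4 tissues, 6 members passed in oral mucosa (2.96% of all probe sets), 5 each in esophagus (0.842%) and footpad (2.16%), 2 in trachea (1.31%) and 0 in vagina (0.743%). Oral mucosa was higher for Serpinb11 by 2.96, Serpina1 by 2.47, Serpinb12 by 1.75 and Serpinb7 by 1.49, and lower for Serpinf1 (−1.62) and Serpine2 (−1.02). Esophagus was lower than the others for 5 members, namely Serpinb9 (−2.24), Serpina1 (−1.40), Serpinf1 (−1.37), Serpine2 (−1.29) and Serpinb7 (−1.21). Footpad was higher for Serpine2 by 2.36 and Serpinb9 by 1.49 and lower for Serpinb11 (−3.05), Serpinb10 (−2.15) and Serpina1 (−1.56). Trachea was higher for Serpinf1 by 1.68 and lower for Serpinb12 (−1.03). In the order of Serpinb7 levels, footpad and vagina before (7.81 ± 0.16 and 7.71 ± 0.26, SD, n = 2) overlapped, while oral mucosa lay above and trachea and esophagus below without overlap. For Serpinb11, esophagus, vagina and trachea overlapped with their neighbors in the order, with oral mucosa (8.79 ± 0.19) above and footpad (3.98 ± 0.14) below. For Serpinb9, no 2 neighbors overlapped before.

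After transplantation, 9 members again differed among tissues, against 11.9% of all probe sets. Serpina1, Serpinb11, Serpinb6a, Serpinb7, Serpinb9 and Serpine2 did so at both stages, which was not counted over all probe sets. Against the mean of the other 4 tissues, 4 members each passed in footpad (3.73%) and trachea (1.74%), 3 in oral mucosa (1.79%), and 1 each in vagina (0.993%) and esophagus (1.2%). The order of the tissues was another one than before. Serpinb7 now differed from the mean of the other 4 tissues by 3.13 in footpad and by −2.89 in oral mucosa, and no 2 neighbors in its order overlapped. Serpinb11 was highest in trachea, by 2.03, and still lowest in footpad (−1.71). Serpinb9 was lower in footpad (−4.25) and higher in trachea, vagina and oral mucosa by 1.63, 1.55 and 1.24. Serpine2 remained highest in footpad, by 2.03, and was lowest in trachea (−1.63). Serpinb6a was higher in trachea by 1.27, Serpinb6b in oral mucosa by 1.39, and Serpina1 lower in esophagus (−1.13). In all tissues together, 18 of 180 pairs of member and tissue passed before (1.6% of all pairs) and 13 after (1.89%).

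Recovered footpad cells stood apart, since 3.73% of all probe sets differed there from the mean of the other 4 tissues, against 0.993% to 1.79% in the other recovered groups. The tests over tissues were therefore repeated without footpad, a choice made after this was seen. Among the other 4 tissues, the response of Serpinb10, Serpinb6a and Serpinb8 no longer passed, nor did the levels of Serpinb10 and Serpinb6a before and Serpinb8 after. The other 9 members whose response differed still passed. The share of all probe sets that passed without footpad is not given here, so this count says nothing about serpins as a family. For Serpinb9, however, the spread of changes dropped from 6.26 to 1.17 without footpad, close to the limit of 1, while it was 4.71 for Serpinb7 and 4.89 for Serpinb11.

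The clade B genes lie in 2 clusters, and changes were read along them in the gene order of GRCr8. On chromosome 13 the measured order was Serpinb5, Serpinb12, Serpinb13, Serpinb3, Serpinb11, Serpinb7, Serpinb2, Serpinb10 and Serpinb8. Serpinb11 and Serpinb7 are neighbors, and both fell in oral mucosa and vagina. Serpinb12, nearer the Serpinb5 end of the cluster, also fell in oral mucosa (−1.76). The measured genes between it and Serpinb11, Serpinb13 and Serpinb3, were under the low level on every array. Serpinb2, the next gene after Serpinb7, differed by −0.53 in oral mucosa and by −0.04 in vagina. Serpinb7 and Serpinb10, on either side of Serpinb2, rose in footpad, where Serpinb2 differed by −0.47 and Serpinb8 by 0.93. On chromosome 17 Serpinb9 lies between Serpinb9b, not analysed here, and Serpinb6b, which differed by −0.17 in footpad. Serpinb6b was under the low level on every footpad array, where a fall could hardly be seen. Serpinb9 and Serpinb6 genes have several close paralogs in the rat, and probe sets of such genes may share signal, so values of Serpinb9, Serpinb9d, Serpinb6a and Serpinb6b are uncertain in that respect.

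**Figure D4:**
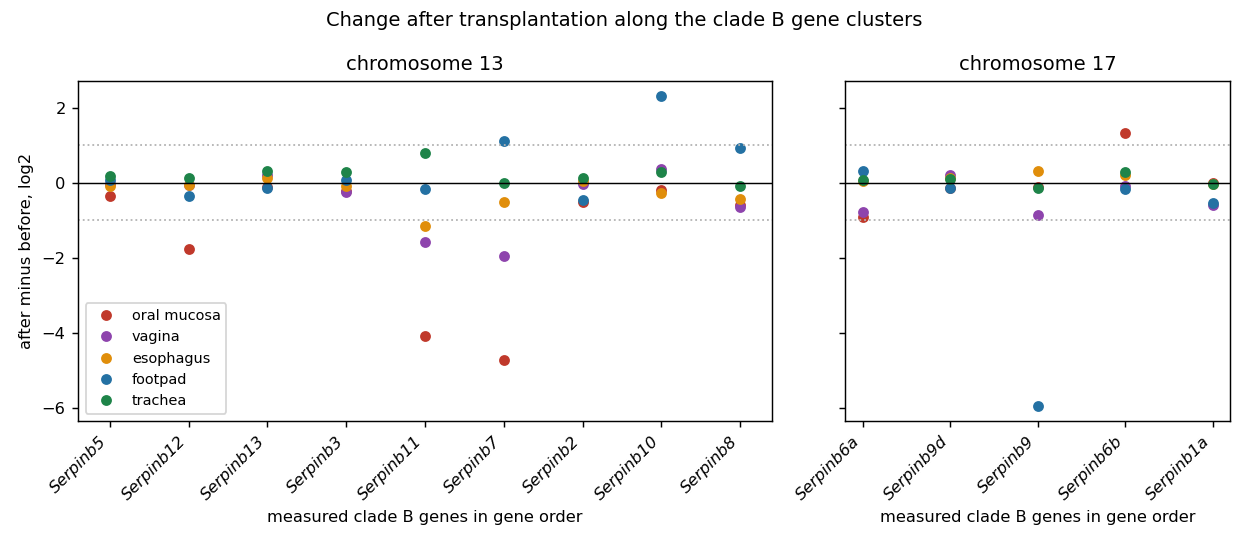
Change after transplantation (after minus before, log2, 1 color per tissue, dotted lines at a 2-fold change) of the measured clade B genes in their order along chromosomes 13 and 17. On chromosome 13 the falls in oral mucosa sit at Serpinb12 (−1.76) and at the neighbors Serpinb11 and Serpinb7, with Serpinb2 next to Serpinb7 at −0.53. On chromosome 17 Serpinb9 falls in footpad, with its plotted neighbors Serpinb9d and Serpinb6b near 0. Both neighbors were under the low level in footpad, where a fall could hardly be seen.

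The genes most like the 3 leading members over the 10 group means were found by Pearson's r, given as a description because the points share arrays and normalization. For Serpinb11 they were Sc5d, an enzyme of cholesterol synthesis (r 0.97), the protease gene Prss27 (0.96) and the desmosomal cadherin Dsc2 (0.95). For Serpinb9 they were Gpx8 (0.95), Hspa8 (0.95) and Brms1l (0.95), of which Hspa8 spanned only 13.29 to 13.51. For Serpinb7 they were Or8b55 (0.89), which lay between 2.60 and 3.07 throughout, Ivd (0.89) and Atp6v1d (0.87). Serpinb7 and Serpinb11 had an r of 0.24 with each other, and Serpinb9 had −0.22 with Serpinb7 and 0.22 with Serpinb11.

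Proteases that serpins and other inhibitors restrain were counted in the same test. For this list and those that follow, the shares of all probe sets serve as a measure. Of all probe sets 2.15% fell in oral mucosa, 1.68% in vagina, 0.558% in esophagus, 2.64% in footpad and 0.883% in trachea. The shares that rose were 1.5%, 0.534%, 0.517%, 4.28% and 0.496%, in that order. Of 16 membrane-bound and other epithelial serine proteases 10 fell in oral mucosa, with Tmprss11d at −2.66, Prss27 at −2.11, Tmprss11f at −2.09 and Tmprss11b at −1.85. The median change of the list was −1.26 in oral mucosa, −0.52 in vagina, −0.48 in esophagus, 0.38 in footpad and 0.12 in trachea, beside medians of all probe sets between −0.03 and 0.06. In vagina 6 fell, with Tmprss11b at −2.46, Tmprss11g at −2.02, Prss22 at −1.27 and Tmprss11f at −1.15, and in esophagus 3, Tmprss4 at −1.19, Tmprss11f at −1.07 and Tmprss11g at −1.04. Footpad and trachea went the other way. In footpad 4 rose and none fell, namely Tmprss11b at 2.40, Prss23 at 1.78, Prss8, or prostasin, at 1.65 and Tmprss11f at 1.22, and in trachea Tmprss11b and Tmprss11f rose by 1.14 and 1.06. Tmprss11f was dim, with group means of 3.34 before and 4.56 after in footpad and 4.63 and 3.48 in vagina. In trachea it had 4.06 before, also under the low level, so the size of these changes is uncertain. Of 7 measured kallikreins, the secreted proteases of epidermal shedding, 5 fell in oral mucosa, with Klk9 at −3.01, Klk12 at −2.36, Klk11 at −2.16 and Klk10 at −1.86. Klk10 rose by 1.03 in footpad, and no kallikrein passed in vagina, esophagus or trachea. Their median change was −1.86 in oral mucosa and between −0.29 and 0.12 elsewhere.

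The plasminogen and coagulation list, which holds targets of Serpinb2 and Serpine2, had 12 measured genes. Plau, the urokinase gene, fell in vagina (−1.09) and footpad (−1.76). F3, or tissue factor, fell in oral mucosa (−1.56), vagina (−1.98) and footpad (−2.10), and the thrombin receptor F2r in footpad (−2.08). Thbd, which encodes thrombomodulin, rose by 1.21 in vagina and in trachea. No gene of this list passed in esophagus, where Serpine2 rose, and its median change lay between −0.19 and 0.03 in the 5 tissues.

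Of 13 measured lysosomal cathepsins and legumain, 5 fell in vagina, with Ctsh at −2.30, Lgmn at −1.20, Ctsz at −1.18 and Ctsk at −1.10, and 4 rose in footpad, with Ctsf at 1.47, Ctsz at 1.40, Lgmn at 1.23 and Ctsc at 1.03. Ctsf fell in oral mucosa (−1.23) and Ctsz in esophagus (−1.85), and none passed in trachea. The median change of this list was −0.65 in vagina, 0.35 in footpad and between −0.10 and −0.03 elsewhere. Of 26 measured protease inhibitors other than serpins, Slpi (−1.59), Spint1 (−1.56) and Csta (−1.34) fell in oral mucosa, and the metalloprotease inhibitor Timp1 rose there by 1.56. In footpad Spint1, an inhibitor of matriptase, rose by 1.49 and Timp1 fell by 3.29. Timp2 (−1.77) and A2m (−1.18) fell in vagina, Cst6 rose by 1.02 in vagina and esophagus, and in trachea Csta rose by 1.32 and Wfdc2 fell by 1.16. Of 7 measured receptors and partners of serpins, Lrp1, which clears complexes of serpin and protease, fell in vagina (−1.34) and trachea (−1.39), and Pnpla2, a lipase that binds the Serpinf1 protein, rose by 1.04 in footpad. The median changes of these last lists lay between −0.12 and 0.08 in every tissue.

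The labelled tissues and the epithelial nature of the cells were checked with markers. The mean level of 6 measured epithelial markers was 10.7 to 11.1 in every group, and of these only Epcam passed, with a rise of 3.00 in footpad. Epcam was low in footpad before, with 7.77 against 9.17 to 10.28 in the other groups before. In oral mucosa Cdh1 (−0.995) and Epcam (−0.98) differed by just under 2-fold. Krt4 and Krt13, keratins of the mucosal lining, were highest in oral mucosa (11.96 and 13.04) and esophagus before, and Krt4 fell to 5.33 in oral mucosa. Krt4 also fell in esophagus (−3.93) and vagina (−1.47), and Krt13 in oral mucosa (−3.69), vagina (−4.36) and esophagus (−2.05). After transplantation both were highest in trachea (9.08 and 10.86), so they did not mark recovered oral mucosa or esophagus cells. Krt13 rose by 2.48 in footpad. Krt1 and Krt10, keratins of the epidermis, were highest in footpad, Krt1 with 6.56 before and 8.73 after (a rise of 2.17) against 4.18 to 4.87 in the other groups, and Krt10 with 7.30 and 7.88 against 4.61 to 6.0. Krt9, a keratin of palm and sole, was between 4.66 and 5.22 in every group and did not set footpad apart. Nkx2-1 was highest in trachea, with 6.71 before and 6.67 after, but hardly set it apart from the other groups, which had 5.56 to 6.45. Of 9 leukocyte markers 7 were under the low level in every group, Cd68 fell in oral mucosa and vagina, and Cd74 rose in oral mucosa by 1.33. No endothelial or melanocyte marker passed in any tissue.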

How the data were processed

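Expression was measured on 20 Affymetrix Rat Gene ST arrays with 100 ng of RNA each, in 10 groups of 2 taken from the labels. The authors deposited log2 values, made by RMA in Affymetrix Expression Console, versions and annotation build not given in the sources used here. RMA summarizes the probes of a set after quantile normalization, which can hide a shift common to all genes, and low values are compressed. Of 29215 probe sets, 15310 had 1 symbol, 323 several and 13582 none, and all 36 members were found under the same symbol in RefSeq (GRCr8). All probe sets were fitted with limma 3.58.1 (lmFit and eBayes, R 4.3.3) over the 10 groups (residual degrees of freedom 10, prior 3.64). Calls needed a fold over 2 and a p below 0.05 after Benjamini-Hochberg adjustment over all probe sets, as in the study. The mean response was fitted on 10 group means with tissue as a block. The code was tested on simulated data. Full values were given for Serpinb7, Serpinb11, Serpinb9 and each member called in any tissue, and up to 4 called genes per list and tissue were named. The members and lists were chosen with earlier results of these data known. Alternatives were another centring, a filter on low means, fewer arrays, a replicate block, an intensity trend, the mean over a symbol's probe sets and leaving out each array. Tables and figures were made with Python 3.11.15 (pandas 2.3.3, matplotlib 3.10.9). The small number of arrays limits the precision.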

Additional observations from a re-analysis of the deposited data

Results flagged for a closer look

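For 12 serpins the change after transplantation differed between the tissues in limma's F test, and each is given here by the gap between its largest and smallest change on the log2 scale. The gap was 6.26 for Serpinb9 (adjusted p 4.42e-11), between esophagus and footpad, 5.84 for Serpinb7 (adjusted p 3.57e-09), between footpad and oral mucosa, and 4.89 for Serpinb11 (adjusted p 4.13e-07), between trachea and oral mucosa. Serpinf1 followed with 2.58, Serpinb10 with 2.57 and Serpina1 with 2.53. Serpine2 had 2.03, Serpinb12 had 1.87, Serpinb8 had 1.59 and Serpinb6b had 1.48 (adjusted p 0.0156, the highest of the 12). Serpinb6a had 1.22 and Serping1 had 1.11, and neither passed in a single tissue.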

How the results depend on the processing

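Of the 23 named changes, every one kept its side of the threshold under the alternatives other than leaving out arrays (136 values). No called change turned its direction there. With 1 array left out, no called change turned its direction. Small uncalled ones could, such as Serpinb7 in trachea (−0.05 to 0.01) and Serpinb9 in oral mucosa (−0.26 to 0.003). The side of the threshold was kept by 455 values, and 5 dropped under it with the same direction. These were Serpinb11 in esophagus (−0.84, adjusted p 0.0506) and Serpine2 in esophagus (0.98) without the first array before, Serpine2 there without the second array after (1.00), Serpinb6b in oral mucosa without the first array after (0.96) and Serpinb7 in footpad without the first array before (1.00). The count of members called was 0 to 2 in esophagus and 1 to 2 in trachea when 1 array was left out, with 0 in esophagus without the first array before and 1 without the second array after. The second call in trachea was Serpine2, without the second array after. Without the probe sets of lowest mean, 3 members instead of 5 were called in oral mucosa, since Serpinb12 and Serpinb6b were then not tested. With arrays centred on their median, Serpinb6a was also called in oral mucosa and the response of Serping1 no longer differed between tissues. Same-numbered arrays had correlations of their deviations of −0.15 to 0.03 before against after. Over all 45 pairs of groups these were −0.41 to 0.40, with 3 pairs over 0.1. That count leaves out negative correlations, so it cannot show that arrays of different groups shared nothing. Same-numbered arrays were treated as unpaired. A replicate block changed no call (5 members in oral mucosa, 3 in vagina, 2 in esophagus, 4 in footpad and 1 in trachea). The mean over a symbol's probe sets changed nothing, since each member had 1.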
